A study of Homo sapiens with 6 samples.

Results

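MT1E, MT1F, MT1G, MT1M, MT1X and MT2A encode metallothioneins, and they are described here together with MTF1 and SLC30A1, genes of the response to zinc. These 8 genes were taken by name from the 58288 in the count table and not by a cutoff on their values. Earlier results of these data were known when they were chosen. T24, a human bladder cancer cell line, was transfected with Lipofectamine 2000 and a control siRNA (NC), si-circ235-1 or si-circ235-2. The siRNAs have different sequences, and both are directed at the back-splice site of circ235, a circular RNA made from exons of CCNY. Each of the 3 conditions had 2 libraries, and no other treatment or genotype is named for any of the 6. The labels call the 2 libraries of each condition biological replicates. The time of harvest is not given in the sources used here. Polyadenylated RNA was sequenced, so circ235 itself was not measured and its knockdown cannot be checked in these counts.

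Metallothioneins are small proteins rich in cysteine, whose thiol groups hold zinc, copper and cadmium. MTF1 is the transcription factor that senses free zinc: with zinc bound, it attaches to metal response elements in the promoters of metallothionein genes and of SLC30A1. SLC30A1, also called ZnT1, carries zinc out of the cell across the plasma membrane. Levels of metallothionein RNA are widely used as a readout of zinc available in the cell, and glucocorticoids and oxidative stress are also known to raise them.

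The metallothionein genes lie side by side on chromosome 16 (GRCh38, GENCODE release 29), with MT2A at chr16:56608199-56609497, MT1E at chr16:56625475-56627112, MT1M at chr16:56632233-56633986, MT1F at chr16:56657694-56660698 and MT1X at chr16:56682424-56684196 on the plus strand, and MT1G at chr16:56666731-56668065 on the minus strand. MTF1 (chr1:37809567-37859620) and SLC30A1 (chr1:211571568-211578742) are on the minus strand of chromosome 1. The coding sequences of MT2A, MT1E and MT1X are shown because these are the most abundant metallothionein and the 2 metallothioneins that differed from NC in the test. Capitals mark the cysteine codons, and the stop codon is left out.
MT2A: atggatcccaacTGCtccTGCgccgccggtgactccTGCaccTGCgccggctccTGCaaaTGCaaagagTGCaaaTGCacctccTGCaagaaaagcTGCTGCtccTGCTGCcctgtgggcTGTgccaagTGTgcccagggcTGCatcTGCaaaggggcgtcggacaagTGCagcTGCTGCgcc
MT1E: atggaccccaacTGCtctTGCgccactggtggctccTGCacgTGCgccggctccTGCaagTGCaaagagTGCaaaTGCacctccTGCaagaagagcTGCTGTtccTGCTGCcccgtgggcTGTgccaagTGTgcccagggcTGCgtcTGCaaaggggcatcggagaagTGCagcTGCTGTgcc
MT1X: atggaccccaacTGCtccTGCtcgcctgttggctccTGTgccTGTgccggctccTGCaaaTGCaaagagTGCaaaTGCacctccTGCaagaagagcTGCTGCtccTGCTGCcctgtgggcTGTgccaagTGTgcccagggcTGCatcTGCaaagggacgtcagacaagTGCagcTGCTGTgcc

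Each of these runs over 3 coding exons and has 183 nucleotides, or 61 codons, of which 20 (32.8%) encode cysteine. The same holds for MT1M and MT1F. Between MT2A, MT1E, MT1M, MT1F and MT1X the coding sequences were 88.5% to 92.3% identical, and MT2A and MT1E matched at 169 of 183 positions. Such likeness can let a read fit several genes, so the share of transcript words found unchanged in another gene was counted. At 100 nucleotides this share was 0% for MT2A, MT1E, MT1M and MT1F, and 19.1% for MT1X. At 50 nucleotides it was 4.88% for MT2A, 5.34% for MT1E, 7.05% for MT1M, 3.59% for MT1F and 45.1% for MT1X. Neither the read length nor the treatment of reads that fit several genes is given in the sources used here, and the values of MT1X are the least certain of the metallothioneins for that reason.

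Upstream windows of 250 bases before the start site were found in RefSeq (GRCh38.p14) for MT2A, MT1X, MTF1 and SLC30A1. They were searched on both strands for the core of the metal response element, spelled TGCACNC or TGCGCNC. The stretches below are shown because MTF1 is known to act through this core. MT1X is given from 160 to 47 bases before the start (chr16:56682310-56682423, plus strand), MT2A from 170 to 141 (chr16:56608414-56608443, plus strand) and SLC30A1 from 60 to 31 (chr1:211579192-211579221, minus strand). These start sites are those of RefSeq and can differ from those of GENCODE. The MT2A stretch lies within the GENCODE bounds of MT2A given above. That of SLC30A1 lies upstream of the GENCODE bounds of SLC30A1, and the bases directly before its GENCODE start were not searched. Capitals mark the cores.
MT1X: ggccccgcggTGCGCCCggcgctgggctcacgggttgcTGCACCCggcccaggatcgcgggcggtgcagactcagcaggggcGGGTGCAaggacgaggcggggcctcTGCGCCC
MT2A: ccGTGTGCAgagccgggTGCGCCCggccca
SLC30A1: acgggggttccGAGTGCAaagcaaagtttt

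The whole MT2A window held 7 cores, that of MT1X 4 and that of SLC30A1 1, whereas the window of MTF1 itself held 0. Over all 35116 RefSeq windows of this length, 24.8% held at least 1 core, 6.48% at least 2 and 1.58% at least 3. These are matches of letters and no measure of binding.

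The libraries held 15373992 to 19912893 counts. Their values are given as CPM, the counts of a gene scaled to a common library total, after TMM, edgeR's scaling for RNA composition. edgeR's filter on low expression left 14415 genes for testing. Those with a Benjamini-Hochberg adjusted p under 0.05 in its quasi-likelihood test are called higher or lower. Against NC, 323 genes were called higher and 524 lower in si-circ235-1 (179 and 529 without TMM), and 2270 and 2260 in si-circ235-2 (3173 and 1294 without TMM). Both comparisons share the NC libraries. Of the epithelial markers KRT7, KRT8 and KRT18 were high in every library, EPCAM had 1.28 to 2.93 CPM, and CDH1 and KRT19 were at or near 0. Of the markers of differentiated urothelium PPARG had 22.6 to 51.1 CPM and was called higher with both siRNAs (log2 fold changes 0.90 and 1.13, adjusted p = 0.0264 and 0.0031, edgeR), whereas the uroplakins lay under 1 CPM. FOXA1 of the same list had 1.59 to 3.42 CPM and GATA3 0.066 to 1.12. VIM and CD44 were high, while KRT5, KRT14 and TP63, listed with CD44 as basal markers, were at or near 0. The leukocyte marker PTPRC was at or near 0, as were the endothelial PECAM1 and the fibroblast PDGFRB. The endothelial CDH5 had 0.328 to 2.29 CPM and the fibroblast COL1A1 0.489 to 1.47. In bulk RNA a change in all cells and a change in a fraction of them cannot be told apart.

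Metallothionein RNA was abundant in T24, and most of it came from one gene. The 6 metallothioneins together took 0.647% and 0.530% of all counts in the NC libraries, 0.697% and 0.921% with si-circ235-1, and 0.443% and 0.413% with si-circ235-2. MT2A ranked 7th to 15th among all genes by counts in the 6 libraries. It gave 87.2% and 86.4% of the metallothionein counts in NC, and MT1E gave most of the rest. Other genes and pseudogenes of the family together had 6 to 50 counts per library.

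Per kilobase of transcript, the order in NC was MT2A, MT1E, MT1M, MT1F, MT1X, SLC30A1 and MTF1. MT2A stood at 8070 and 5643 CPM per kilobase, MT1E at 1128 and 854, MT1M at 89.5 and 63.7, MT1F at 45.5 and 29.5, MT1X at 6.83 and 7.16, SLC30A1 at 1.69 and 1.92, and MTF1 at 1.07 and 1.26. No pair of neighbours in that order overlapped between the libraries of NC, and the order was the same with si-circ235-1. With si-circ235-2 MTF1 (2.40 and 2.92 CPM per kilobase) stood above SLC30A1 (1.60 and 2.10), and its range overlapped that of MT1X (2.52 and 3.47). MT1G had 0 counts in 5 libraries and 2 counts in 1 library of si-circ235-2. A count of 0 allows up to 0.151 to 0.195 CPM (3 counts, counting error only), here scaled to the library total without TMM. MT1G did not pass the filter, and 7 of the 8 genes were tested.

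**Figure D1:**
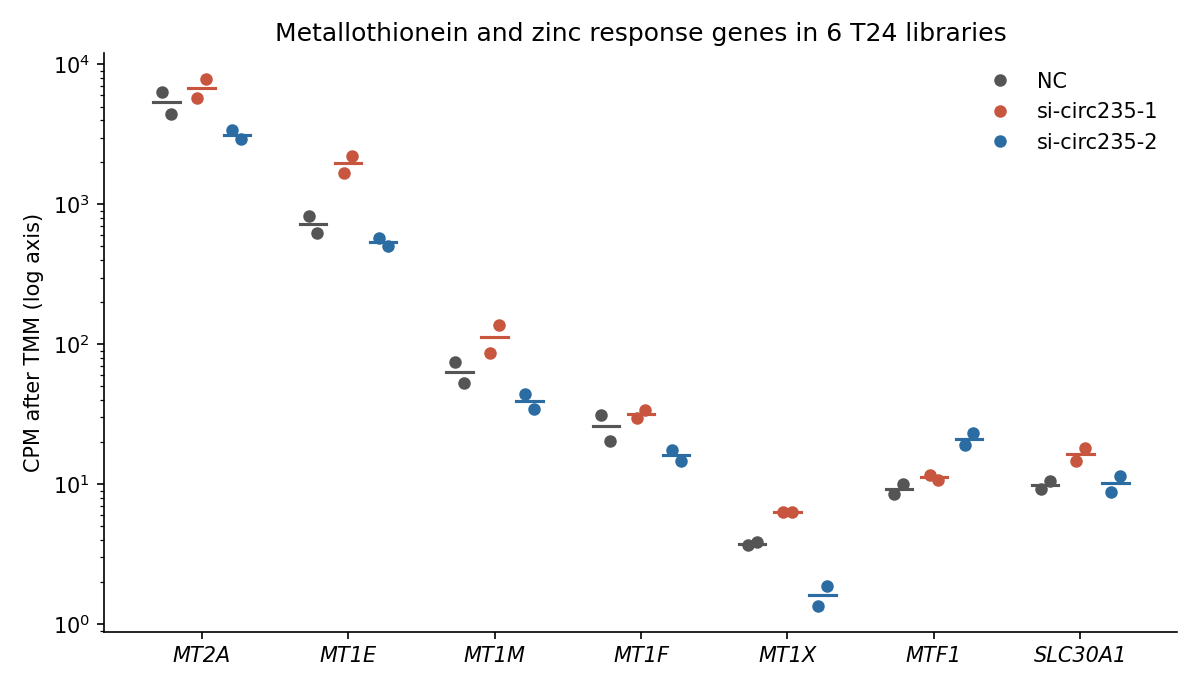
CPM after TMM on a log axis for the 7 tested genes, with 1 point per library, 2 libraries per condition and a bar at their mean. MT1E is highest with si-circ235-1, at 1688 and 2233 CPM, and MTF1 with si-circ235-2, at 19.1 and 23.3 CPM.

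With si-circ235-1, MT1E was 2.71-fold higher than in NC, and it was the 1 gene of the 7 tested that passed the test. MT1E, one of the metallothioneins that act as a zinc and copper store, had 823 and 623 CPM in NC and 1688 and 2233 CPM with si-circ235-1. Both si-circ235-1 libraries were above both NC libraries. The log2 fold change was 1.44 (SE 0.24, 95% interval 0.90 to 1.98), with an adjusted p of 0.0131 in edgeR. Over all genes tested in this comparison, 2.24% were called higher and 3.64% lower.

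MT2A, the most abundant metallothionein, had 6343 and 4436 CPM in NC and 5792 and 7822 CPM with si-circ235-1. These groups overlapped, and the log2 fold change was 0.34 (95% interval -0.30 to 0.97, adjusted p = 0.509, edgeR). MT1F also overlapped, with 31.4 and 20.4 CPM in NC against 29.7 and 34.1 CPM. MT1M went from 74.2 and 52.8 CPM to 87.3 and 138 CPM, and MT1X from 3.67 and 3.85 CPM to 6.37 and 6.31 CPM. Neither passed the test (log2 fold changes 0.83 and 0.75, adjusted p = 0.0777 and 0.151, edgeR), although their groups did not overlap.

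Of the zinc response genes, the exporter SLC30A1 had 9.25 and 10.5 CPM in NC and 14.6 and 18.3 CPM with si-circ235-1. Its groups did not overlap, and its log2 fold change of 0.73 (95% interval 0.17 to 1.29) did not pass the test (adjusted p = 0.107, edgeR). The zinc sensor MTF1 had 8.53 and 10.02 CPM in NC and 11.7 and 10.8 CPM with si-circ235-1, a log2 fold change of 0.27 (adjusted p = 0.517, edgeR). All 7 log2 fold changes were above 0, with a median of 0.73 beside -0.03 over all genes tested. The groups of libraries did not overlap for 5 of the 7, against 55.0% of all genes tested. The call of MT1E was lost without NC replicate 1 (log2 fold change 1.65, adjusted p = 0.0596), without NC replicate 2 (1.29, adjusted p = 0.0869) and without si-circ235-1 replicate 2 (1.23, adjusted p = 0.167) in edgeR, and without the last of these 0 of all genes were called in either direction (2110 at an unadjusted p under 0.05).

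The makeup of the metallothionein counts also differed, and that measure needs no scaling between libraries. MT1E gave 11.3% and 12.1% of the metallothionein counts in NC, 22.2% and 21.8% with si-circ235-1, and 14.2% and 14.5% with si-circ235-2. The 3 conditions did not overlap, and the libraries of each condition lay within 1 percentage point. For each count of MT1E there were 7.71 and 7.12 counts of MT2A in NC, 3.43 and 3.50 with si-circ235-1, and 5.93 and 5.79 with si-circ235-2. MT1M stayed between 1.00% and 1.35% of the metallothionein counts in all 6 libraries. These shares were not tested, and they are not free of the trend over transcript length and GC content described below. The longest coding transcript of MT1E has 53.5% GC and that of MT2A 63.0%. That MT1E transcript has 729 nucleotides and 2 coding exons. The MT1E coding sequence shown above is from a transcript of 704 nucleotides with 3 coding exons. Values with the trend removed rest on the longer transcript, and the other was not tried. With that trend removed, the log2 fold changes with si-circ235-1 were 1.52 for MT1E and 0.56 for MT2A. With si-circ235-2 they were 0.0063 and 0.14, so MT1E no longer lay above MT2A as before (-0.43 and -0.77).

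**Figure D2:**
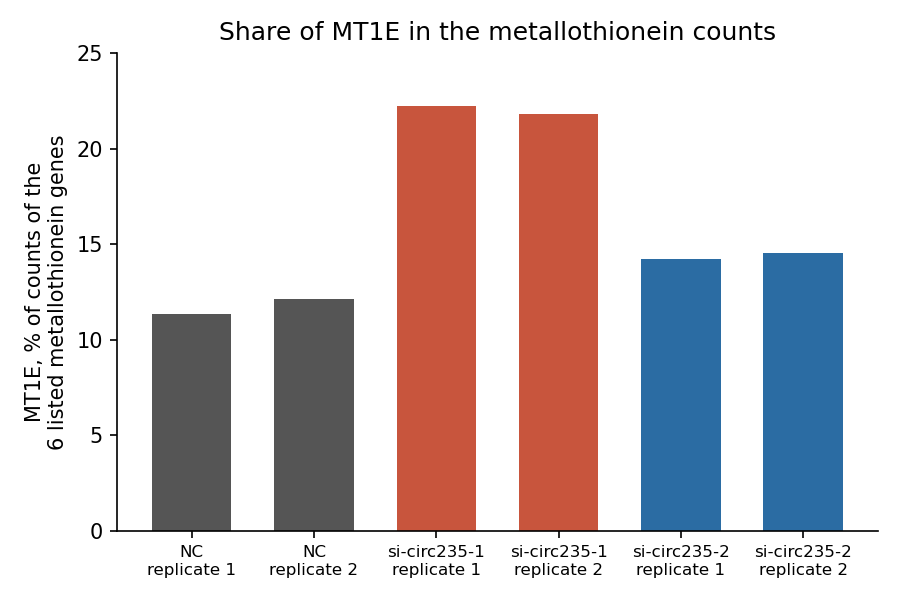
MT1E as a percent of the counts of the 6 metallothionein genes, 1 bar per library, with the axis starting at 0. The si-circ235-1 libraries stand at 22.2% and 21.8%, above 11.3% and 12.1% in NC and 14.2% and 14.5% with si-circ235-2.

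With si-circ235-2, MTF1 was 2.28-fold higher than in NC and MT1X fell to 0.432 of its NC level, while the other metallothioneins lay below NC without passing the test. MTF1 had 8.53 and 10.02 CPM in NC and 19.1 and 23.3 CPM with si-circ235-2, with both si-circ235-2 libraries above both of NC. Its log2 fold change was 1.19 (SE 0.24, 95% interval 0.67 to 1.72, adjusted p = 0.00523, edgeR). MT1X, a metallothionein of low level here, had 56 and 63 counts in NC and 23 and 39 with si-circ235-2, or 3.67 and 3.85 against 1.36 and 1.86 CPM. Its log2 fold change was -1.21 (SE 0.32, 95% interval -1.92 to -0.50, adjusted p = 0.0173, edgeR). Of all genes tested, 15.7% were called higher and 15.7% lower in this comparison, so 1 of 7 in each direction is close to the background.

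MT2A had 6343 and 4436 CPM in NC and 3386 and 2914 CPM with si-circ235-2, and its log2 fold change was -0.77 (95% interval -1.41 to -0.14, adjusted p = 0.0637, edgeR). MT1M (44.0 and 34.8 CPM with si-circ235-2) and MT1F (17.5 and 14.6 CPM) had log2 fold changes of -0.69 each, with adjusted p-values of 0.0626 and 0.0596 in edgeR. These 3 metallothioneins lay below NC in both libraries. MT1E had 571 and 503 CPM with si-circ235-2, also below both NC libraries, and a log2 fold change of -0.43 (adjusted p = 0.198, edgeR). SLC30A1 had 8.73 and 11.5 CPM with si-circ235-2, overlapped NC, and had a log2 fold change of 0.04 (95% interval -0.53 to 0.60). The groups did not overlap for 6 of the 7 genes, against 71.4% of all genes tested, and the median over the 7 was -0.69 beside -0.00 over all genes tested.

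Transcript length moved with this comparison across all genes. The 1296 tested genes whose longest coding transcript is under 1000 nucleotides had a median log2 fold change of -0.71 with si-circ235-2, and 30.4% of them were called lower. The 3437 genes of 5000 nucleotides or more had a median of 0.48, and 36.0% of them were called higher. With si-circ235-1 both medians were 0.03. The 5 tested metallothionein transcripts have 538 to 829 nucleotides, and those of MTF1 and SLC30A1 have 7972 and 5474. MT2A, MT1M and MT1F thus lay within 0.1 of the median of their length class on the log2 scale, MT1X lay below it and MT1E above it.

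A spline over transcript length and GC content was then fitted and subtracted in each library. This left 0 of the 7 genes called by edgeR in si-circ235-2 against NC (1 at an unadjusted p under 0.05). Of all 14386 genes then tested, 1503 were called higher and 2048 lower in that comparison, against 2270 and 2260 of 14415 before. The log2 fold changes then were 0.14 for MT2A, 0.0063 for MT1E, 0.18 for MT1M, 0.072 for MT1F and -0.11 for SLC30A1. MT1X stood at -0.75 (adjusted p = 0.128, edgeR) and MTF1 at 0.40 (adjusted p = 0.129, edgeR). For MT1E and MT1X the spline used transcripts of 729 and 538 nucleotides. Their coding sequences shown above are from transcripts of 704 and 450 nucleotides, so their corrected values depend on that choice. In si-circ235-1 against NC the same removal left MT1E at 1.52 (adjusted p = 0.00146, edgeR) and brought MT1M (1.05, adjusted p = 0.0104) and SLC30A1 (0.63, adjusted p = 0.0496) past the threshold in edgeR. Calls over all genes rose too, from 323 higher and 524 lower to 1341 and 868, so the gain was not particular to these genes. Calls with the trend removed in the gene lists below stand beside these counts. Both calls with si-circ235-2 were lost without NC replicate 1, although the log2 fold changes were 1.07 for MTF1 and -1.25 for MT1X (adjusted p = 0.0686 and 0.0822, edgeR), and calls over all genes then went from 2270 higher and 2260 lower to 432 and 337. That of MT1X was also lost without si-circ235-2 replicate 1 (-1.01, adjusted p = 0.0962, edgeR). DESeq2 called 5 of the 7, adding MT2A, MT1M and MT1F as lower.

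**Figure D3:**
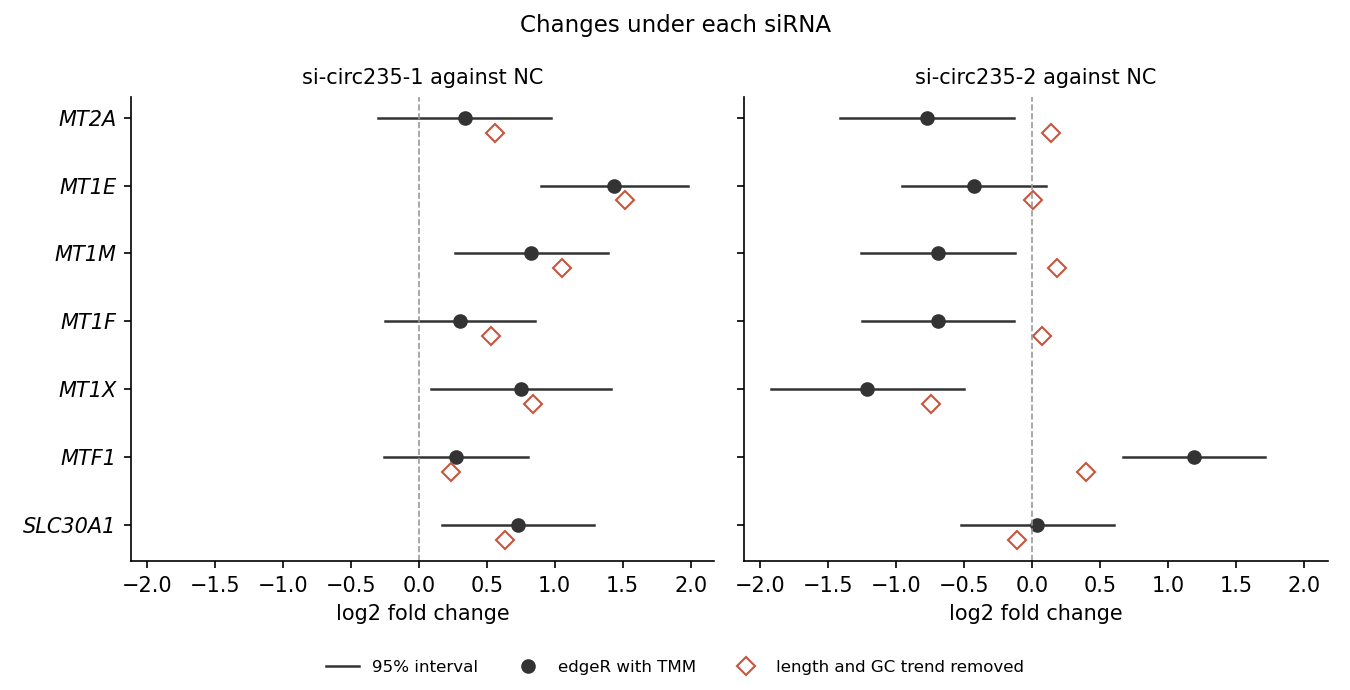
Log2 fold changes of the 7 tested genes against NC, with filled points and 95% intervals from edgeR and open diamonds after removal of the length and GC trend, 2 libraries per condition. With si-circ235-1 MT1E moves from 1.44 to 1.52, whereas with si-circ235-2 MT2A moves from -0.77 to 0.14 and MTF1 from 1.19 to 0.40.

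**Figure D4:**
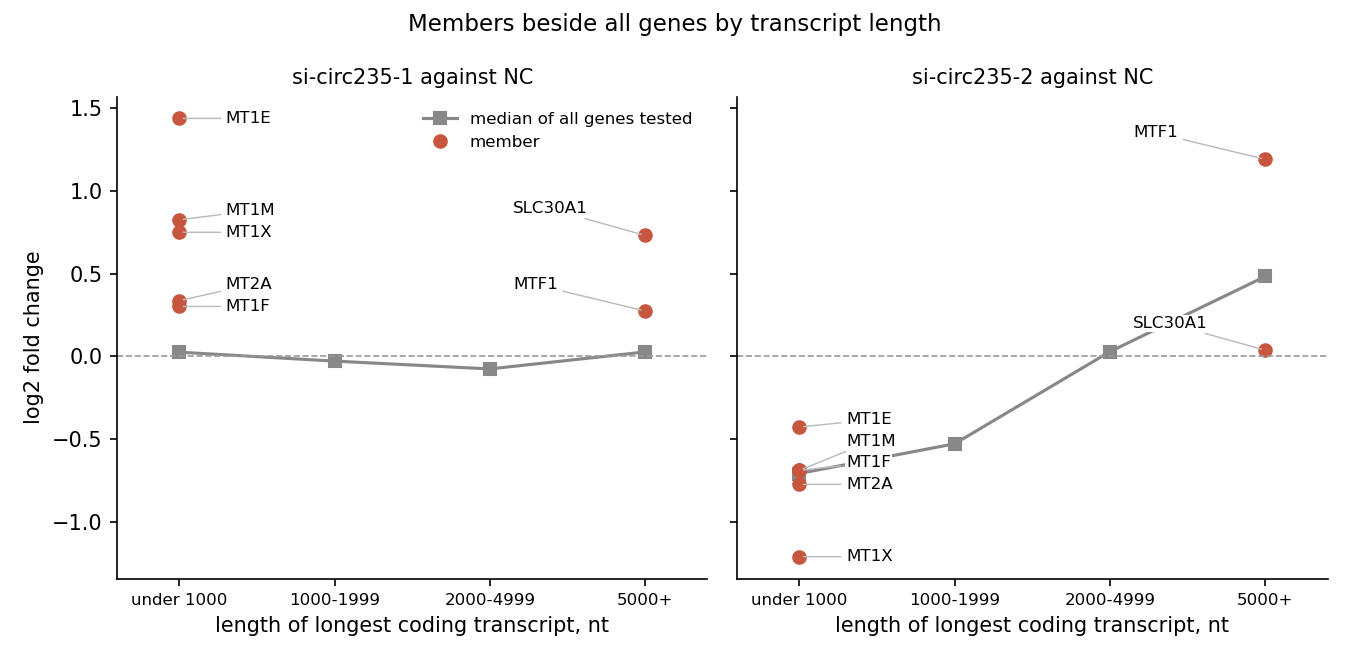
Log2 fold change against NC by class of transcript length in nucleotides, with squares for the median of all genes tested in a class and circles for the 7 genes described here. With si-circ235-2 the median runs from -0.71 in the shortest class to 0.48 in the longest, and MT1F, MT1M and MT2A lie near the median of their class.

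Set directly against each other, the siRNAs gave different levels of all 7 tested genes. All 5 tested metallothioneins and SLC30A1 were lower with si-circ235-2 than with si-circ235-1, and MTF1 was higher. In this comparison 21.1% of all genes tested were called higher and 18.6% lower. Among transcripts under 1000 nucleotides the median log2 fold change was -0.80, and 38.0% were called lower. Among those of 5000 nucleotides or more the median was 0.44, and 37.3% were called higher. The largest differences of the 7 were those of MT1X (log2 fold change -1.96, SE 0.32, adjusted p = 0.00134, edgeR) and MT1E (-1.87, SE 0.25, adjusted p = 0.000683, edgeR). MT1M differed by -1.52 (adjusted p = 0.00162), MT2A by -1.11 (adjusted p = 0.0122) and MT1F by -0.99 (adjusted p = 0.0108) in edgeR. MTF1 differed by 0.92 (adjusted p = 0.011) and SLC30A1 by -0.69 (adjusted p = 0.0486) in edgeR.

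The groups did not overlap for 7 of 7, against 72.1% of all genes tested, and the median over the 7 was -1.11 beside 0.04 over all genes tested. With the length and GC trend removed, MT1E (-1.51, adjusted p = 0.000373), MT1X (-1.59, adjusted p = 0.00432), MT1M (-0.87, adjusted p = 0.00757), SLC30A1 (-0.74, adjusted p = 0.0112) and MT1F (-0.46, adjusted p = 0.0491) were still called lower by edgeR. MT2A (-0.43, adjusted p = 0.0866) and MTF1 (0.17, adjusted p = 0.479) were not called by edgeR. Over all genes, 2432 were then called higher and 3394 lower, against 3047 and 2678 before. Without si-circ235-1 replicate 2, edgeR called 3 of the 7, namely MT1E, MT1M and MT1X. The call of SLC30A1 was lost when any library other than si-circ235-2 replicate 2 was left out.

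Summed over the 6 genes, metallothionein CPM were 7275 and 5135 in NC, 7604 and 10230 with si-circ235-1, and 4021 and 3469 with si-circ235-2. The mean with si-circ235-1 was 1.44 times that of NC (error 0.461, carried from the SDs of 2 libraries each). With si-circ235-2 the ratio to NC was 0.604 (error 0.16), and the ratio to si-circ235-1 was 0.420 (error 0.0979). Since MT2A makes up most of this sum, the ratios follow MT2A more than any other gene. They were not corrected for the length and GC trend. With that trend removed, the log2 fold change of MT2A went from -0.77 to 0.14 in si-circ235-2 against NC. It went from -1.11 to -0.43 between the siRNAs and from 0.34 to 0.56 in si-circ235-1 against NC.

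Of 7 tested exporters of the SLC30 family, which move zinc out of the cytosol, 0 were called in si-circ235-1 against NC by edgeR (2 at an unadjusted p under 0.05 and 0 by DESeq2), and 1 in si-circ235-2 against NC, SLC30A4, which rose by 0.91 on the log2 scale (adjusted p = 0.0371, edgeR). With the trend removed SLC30A4 stood at 0.54 and was not called, while SLC30A1 (0.63) was called higher in si-circ235-1 against NC. That 1 call among 7 stands beside 15.7% of all genes called higher with si-circ235-2. Medians over the exporters were 0.16 and 0.09.

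Of 11 tested importers of the SLC39 family, which bring zinc into the cytosol, 1 was called in si-circ235-1 against NC, where 2.24% of all genes were called higher and 3.64% lower. SLC39A8, a zinc and manganese importer, had 15.2 and 21.1 CPM in NC and 33.7 and 38.4 CPM with si-circ235-1. Both si-circ235-1 libraries lay above NC, with a log2 fold change of 0.99 (adjusted p = 0.0365, edgeR). In si-circ235-2 against NC, SLC39A9 (1.08), SLC39A14 (0.98) and SLC39A6 (0.65) rose and SLC39A3 (-1.46) and SLC39A4 (-1.17) fell on the log2 scale, with SLC39A8 at -0.07. These 3 and 2 of 11 stand beside 15.7% of all genes in each direction. SLC39A3 had 139 and 89.1 CPM in NC and 43.6 and 39.1 CPM with si-circ235-2. The trend removed, SLC39A3 was at -1.34 and still called lower, while the calls of SLC39A14 (0.36) and SLC39A4 (-0.38) were lost, and SLC39A8 (-0.57, adjusted p = 0.038) was called lower and SLC39A1 (0.54, adjusted p = 0.0183) higher by edgeR. In si-circ235-1 against NC the same removal kept the call of SLC39A8 (0.995) and brought SLC39A3 (0.86) past the threshold as higher in edgeR. The median over the importers was 0.13 with si-circ235-1 and 0.32 with si-circ235-2.

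Copper, the other essential metal that metallothioneins bind, has its own carriers. Of 11 tested copper genes, 0 were called in si-circ235-1 against NC by edgeR (2 at an unadjusted p under 0.05 and 0 by DESeq2), while 5 fell and 1 rose in si-circ235-2 against NC, beside 15.7% of all genes in each direction and 30.4% called lower among transcripts under 1000 nucleotides. ATOX1, the copper chaperone for the copper-pumping ATPases, changed by -1.35 on the log2 scale, CCS, the chaperone of superoxide dismutase, by -1.20, and SOD1, the copper-zinc superoxide dismutase itself, by -0.93. SOD1 had 381 and 299 CPM in NC and 201 and 155 CPM with si-circ235-2. COMMD1 (-0.88) and COX17 (-0.72), which carries copper towards cytochrome c oxidase, also fell, and the copper pump ATP7B rose (1.07). The median over the list was -0.72, and with the trend removed 3 of these calls remained, those of ATOX1, SOD1 and COMMD1. For ATOX1 the correction used its longest annotated coding transcript, of 4341 nucleotides, which may overstate the length of the RNA counted, so its corrected value is uncertain. In si-circ235-1 against NC, SLC31A1 (0.46) was called higher by edgeR once the trend was removed.

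MTF1 works with coactivators and with other factors bound nearby. The list read for this holds EP300, CREBBP, SP1, HIF1A, USF1, USF2 and also MTF2, for which no partnership with MTF1 is claimed. In si-circ235-2 against NC, edgeR called 3 of these 7 tested genes higher and 1 lower. In si-circ235-1 against NC it called 0 of 7 (4 at an unadjusted p under 0.05, MTF2 among them, and 1 by DESeq2). With si-circ235-2, 15.7% of all genes were called in each direction, and 36.0% were called higher among transcripts of 5000 nucleotides or more, to which EP300, CREBBP and SP1 belong. EP300, a histone acetyltransferase that MTF1 recruits, had 24.3 and 33.5 CPM in NC and 87.1 and 95.7 CPM with si-circ235-2 (log2 fold change 1.66, adjusted p = 0.00179, edgeR). The related CREBBP rose by 1.16 and SP1 by 1.05 on the log2 scale, and USF1 changed by -0.92. With the trend removed the log2 fold changes of EP300, CREBBP and USF1 were 0.99, 0.65 and -0.66, all still called, while SP1 (0.32) was not. MTF2 (0.63) was then called higher by edgeR in si-circ235-1 against NC.

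Genes of metal and oxidative stress and glucocorticoid targets were read because both stimuli are known to act on metallothioneins. Of 8 tested stress genes, 0 were called by edgeR in si-circ235-1 against NC (3 at an unadjusted p under 0.05 and 3 by DESeq2), and 2 rose in si-circ235-2 against NC, TXNRD1 (log2 fold change 0.88), a thioredoxin reductase, and GCLM (0.66), a subunit of the enzyme that starts glutathione synthesis. The shares over all genes were 2.24% higher and 3.64% lower with si-circ235-1, and 15.7% in each direction with si-circ235-2. With the trend removed, si-circ235-2 against NC gave GCLM at 0.67, still called, TXNRD1 at 0.35 and no longer called (adjusted p = 0.0926), NQO1 (-0.86) and HSPH1 (-0.39) called lower, and HMOX1 called higher by edgeR. HMOX1, the haem-degrading enzyme, had 699 and 556 CPM in NC, 395 and 254 with si-circ235-1, and 941 and 810 with si-circ235-2. It did not pass the test against NC (log2 fold changes -0.95 and 0.48, adjusted p = 0.0508 and 0.163, edgeR), and with the trend removed it was called in both comparisons (-0.71 and 0.92, adjusted p = 0.0201 and 0.00547, edgeR). Between the siRNAs it differed by 1.43 (adjusted p = 0.00182, edgeR). With si-circ235-1, both libraries lay below NC for HMOX1 and above it for MT1E. HMOX1 was the 1 stress gene of 8 with a log2 fold change below 0 in that comparison. The other 7 lay above 0, with a median of 0.42 over the list, and the median was 0.05 with si-circ235-2. With the trend removed, HSPH1 (0.60) and DNAJB1 (0.72) were called higher by edgeR in si-circ235-1 against NC.

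Of 9 tested genes in the list of glucocorticoid targets, which holds the receptor, 0 were called by edgeR in si-circ235-1 against NC (3 at an unadjusted p under 0.05 and 2 by DESeq2), and 3 rose and 1 fell in si-circ235-2 against NC. FKBP5, a cochaperone of the receptor, rose by 1.01 on the log2 scale, ERRFI1 by 1.16 and the receptor gene NR3C1 by 0.62, while CEBPD changed by -0.98, beside 15.7% of all genes called in each direction. With the trend removed, the call of ERRFI1 (0.91) remained among these 4, and DUSP1 (0.50) was called higher by edgeR as well. In si-circ235-1 against NC, ERRFI1 (-0.75) and DUSP1 (-0.57) were then called lower and TSC22D3 (0.56) higher.

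Across the 6 libraries, the metallothioneins varied together, with Pearson r between 0.85 and 0.99 for log2 CPM of each pair, the highest being MT2A with MT1F. MTF1 ran against them, with r from -0.84 for MT2A to -0.51 for MT1E. SLC30A1 had r = 0.85 with MT1E and 0.58 with MT2A. The libraries form 3 conditions and share the length trend described above, so these are descriptions of 6 points with no test.

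Among 10377 genes with a mean of at least 5 CPM, those whose pattern was most like that of MT2A were NDUFB2, UROS, PSMB6, FAU and NENF, with r from 0.998 to 0.999 over 6 libraries. Altogether 747 genes had r over 0.95 with MT2A, and MT1E ranked 1795th. For MTF1 they were ARHGEF12, PAX8-AS1, SEC14L1, ARFGEF2 and GAPVD1 (r from 0.996 to 0.997, with 499 genes over 0.95). PAX8-AS1 is an antisense RNA, and counts without strand information cannot separate it from genes it overlaps. For SLC30A1 they were FZD6, GNAI3, DPH3, BZW1 and HSPH1 (r from 0.989 to 0.996), and 47 genes had r over 0.95.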

How the data were processed

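Oligo dT-enriched RNA of T24 cells was sequenced without strand information in 6 libraries. The authors deposited 1 table of raw counts per gene, as whole numbers without normalization. The submitters' processing notes name FastQC, cutadapt and STAR and the build hg38, with no counting tool or annotation. Groups came from the sample labels. Symbols, lengths and GC content came from GENCODE release 29, which matched 99.5% of identifiers.

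Testing used edgeR 4.0.16 under R 4.3.3 (filterByExpr, TMM, 1 mean per condition over all 6 libraries with 3 residual degrees of freedom, quasi-likelihood test, Benjamini-Hochberg adjustment over 14415 genes). Standard errors were derived from the F statistics. With 2 libraries per condition, precision was limited by the number of libraries more than by depth. The 2 libraries of a condition differed beyond sampling noise (chi-square per degree of freedom 21.7 to 33.3). The fit was tested on simulated data.

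Alternatives were DESeq2 1.42.0, no TMM, no filter, only the libraries compared, a replicate block, each library left out and a spline trend (5 degrees of freedom) over transcript length and GC content removed. The trend on the context lists was chosen after seeing the data. Named were the 8 genes, called genes of the context lists with a mean of at least 5 CPM (up to 8 per list and comparison) and the 5 genes most like MT2A, MTF1 and SLC30A1. SLC39A8 and HMOX1 values outside their calls are given for comparison. Genes of the context lists called with the trend removed and markers of cell types are named too. The members, lists and alternatives were chosen with earlier results of these data known.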

Additional observations from a re-analysis of the deposited data

How the results depend on the processing

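Of 7 genes tested, edgeR called 1 in si-circ235-1 against NC, and 2 with DESeq2, with no filter or with only the libraries compared, 3 with the length and GC trend removed, and 0 to 2 with each library left out. In si-circ235-2 against NC it called 2, against 5 with DESeq2 or with no filter, 1 without TMM, 0 with the trend removed and 0 to 4 with a library left out (0 without NC replicate 1 and 4 without NC replicate 2). Between the siRNAs it called 7, against 3 to 7 with a library left out (3 without si-circ235-1 replicate 2) and 5 without TMM, where MT1F stood at -0.66 (adjusted p = 0.0505) and SLC30A1 at -0.35 (adjusted p = 0.351) in edgeR. The call of SLC30A1 was also lost with no filter (adjusted p = 0.0617) and with only the libraries compared (adjusted p = 0.0875). With the trend removed, 5 values of si-circ235-2 against NC changed sign on the log2 scale, to 0.14 for MT2A, 0.0063 for MT1E, 0.18 for MT1M, 0.072 for MT1F and -0.11 for SLC30A1, and that of SLC30A1 ranged from -0.18 to 0.22 with a library left out (-0.06 without NC replicate 1 and -0.18 without si-circ235-2 replicate 2). Counts over all genes changed with the settings as well. Against NC, DESeq2 called 714 of 14415 genes higher and 805 lower in si-circ235-1, and 2231 and 2382 in si-circ235-2. With no filter, 611 of 25830 and 1067 were called in si-circ235-1, and 2287 and 2493 in si-circ235-2. In that setting 8 of the genes described here were tested, MT1G among them. With the trend removed, 1341 and 868 of 14386 were called in si-circ235-1, and 1503 and 2048 in si-circ235-2. The ratio of summed metallothionein CPM between the siRNAs was 0.529 without TMM. Without TMM the median of all genes on the log2 scale stood at -0.11, 0.25 and 0.37 in the 3 comparisons, and in si-circ235-2 against NC the values without TMM were -0.50 for MT2A, -0.16 for MT1E and -0.42 for both MT1M and MT1F. The cause of these differences was not tested. With the replicate number as a block, edgeR called 1, 2 and 7 of the 7 genes in the 3 comparisons. The correlations of same-numbered deviations were -0.09, 0.15 and 0.14, and since 1 of 3 was under 0.1 and the labels name no shared batch, the numbers were not taken as pairs.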
